A study of Mus musculus with 12 samples.

Results

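The loci of 5 genes used as markers of oligodendrocytes and inhibitory interneurons were examined: Olig2 and Olig1, Sox10, Gad1 and Gad2. The data were ATAC-seq peak lists of the mouse dentate gyrus, a region of the hippocampus made up mainly of granule neurons. ATAC-seq marks open chromatin by where a transposase can insert sequencing adapters. Members were all peaks overlapping 4 windows, each a gene (or the Olig2 and Olig1 pair) with about 50 kb on both sides, in mm9: chr16:91175000-91325000 for Olig2-Olig1, chr15:78935000-79045000 for Sox10, chr2:70341000-70492000 for Gad1 and chr2:22427000-22600000 for Gad2. They held 212 of the 718062 peaks in all lists. Peaks of all lists that overlapped by 1 bp or more were joined, which gave 170710 regions, of which 53 lay in the windows: 15 at Olig2-Olig1, 19 at Sox10, 13 at Gad1 and 6 at Gad2. Each of the 12 libraries came from 1 adult C57BL/6 mouse, 8 weeks old, by microdissection. Groups E0, E1 and E4 had 4 mice each and shared strain, tissue and age. The labels do not say what the group names mean; in the published study, as far as it is known here, they are mice without, 1 h after and 4 h after electroconvulsive stimulation. A microdissected dentate gyrus holds glia and interneurons beside granule neurons, and in such bulk tissue fewer cells of a type and less accessible chromatin per cell cannot be told apart.

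Olig1 and Olig2 are basic helix-loop-helix transcription factors of the oligodendrocyte lineage, the cells that make myelin, and Sox10 is a high-mobility-group factor that acts with them to drive myelin genes. Gad1 and Gad2 encode the enzymes that make the inhibitory transmitter GABA from glutamate, GAD67 and GAD65. Both genes served here as markers of GABAergic interneurons. Regulatory DNA of such identity genes is usually open in the cells that use them, so in a tissue mostly of granule neurons these loci are read as signs of the minority cells. Which cell type a peak came from was not tested.

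RefSeq promoters were at hand for 3 of the 5 genes (Olig2, Gad1 and Gad2), and are shown because they are the sequence that a peak at the start of an identity gene would hold. They are of build GRCm38.p6, all on the + strand, 250 bases up to the annotated start, at chr16:91225300-91225549 for Olig2, chr2:70561879-70562128 for Gad1 and chr2:22622077-22622326 for Gad2. The peaks are in mm9, so these positions were not compared with them. Capitals mark the dinucleotide CG.
Olig2: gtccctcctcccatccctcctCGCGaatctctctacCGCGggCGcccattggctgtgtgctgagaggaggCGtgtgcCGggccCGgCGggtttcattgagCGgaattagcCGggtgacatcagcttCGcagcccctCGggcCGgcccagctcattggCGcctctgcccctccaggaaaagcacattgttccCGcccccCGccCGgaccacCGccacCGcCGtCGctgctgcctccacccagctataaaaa
Gad1: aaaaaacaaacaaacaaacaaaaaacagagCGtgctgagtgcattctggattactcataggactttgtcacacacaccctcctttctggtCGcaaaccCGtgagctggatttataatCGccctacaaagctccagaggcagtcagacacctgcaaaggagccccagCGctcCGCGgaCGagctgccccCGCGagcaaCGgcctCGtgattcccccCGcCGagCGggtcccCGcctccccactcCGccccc
Gad2: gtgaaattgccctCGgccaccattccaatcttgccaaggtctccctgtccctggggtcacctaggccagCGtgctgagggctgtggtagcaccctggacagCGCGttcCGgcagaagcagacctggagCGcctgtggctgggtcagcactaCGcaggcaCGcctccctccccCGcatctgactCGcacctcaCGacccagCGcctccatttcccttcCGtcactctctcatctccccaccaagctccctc
The Olig2 promoter held 22 CG dinucleotides, the Gad1 promoter 17 and the Gad2 promoter 13, against a median of 6 over the 32851 promoters of the table, of which 92.1% held at least 1. Their GC content was 66.8%, 58.0% and 64.0%, against a median of 52.4%. The motif CANNTG (the E-box that basic helix-loop-helix factors bind, the same on both strands) was found 0 times in the Olig2, 1 time in the Gad1 and 1 time in the Gad2 promoter, and 66.2% of all promoters held it.

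The peak lists differed much in length. On chromosomes 1 to 19 and X they held 24426 (E4 replicate 3) to 104120 peaks (E4 replicate 1) and covered 7.48 to 59.5 Mb in the same 2 libraries. The other E4 lists, replicates 2 and 4, were also short (34863 and 31742 peaks, against 36861 to 84776 in E0 and E1). The lists hold no read counts, so depth is unknown, and the lack of a peak call cannot be read as closed chromatin. For this reason each window's covered length is given per Mb of peaks in the same list, and peak numbers are also given for lists reduced to their 24426 highest scores. The score is the authors' own value per peak and was used mainly to rank peaks within a list, as a percentile with 100 for the highest score. Fixed cuts were used as well: a score of at least 100 in an alternative setting, and of at least 3000 to describe the wide Gad2 region. With no stated scale and unknown depth, a fixed cut may not mean the same in each list.

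**Figure D1:**
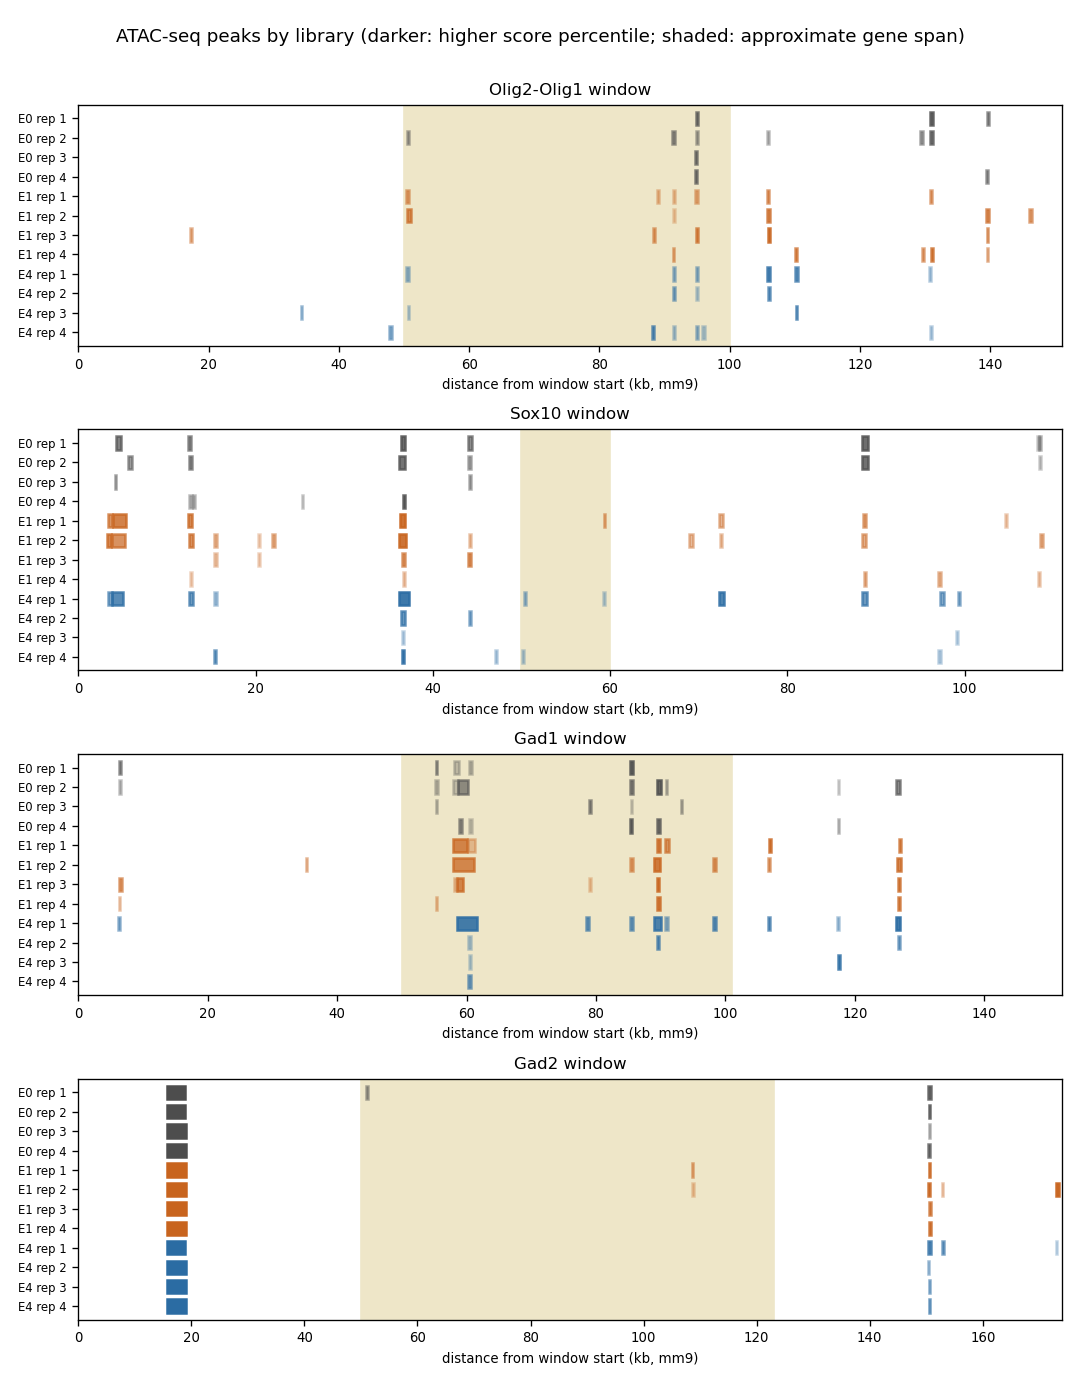
Position of every peak in the 4 windows (x axis: distance from the window start in kb, mm9) in each of the 12 libraries (rows; grey E0, orange E1, blue E4), with darker bars for a higher score percentile, outlines added for visibility, and shading over the approximate gene span, from 50 kb inside one edge of the window to 50 kb inside the other. The Gad2 span is nearly empty, while the wide block on its left and a narrow peak about 150 kb into the window are there in all 12 libraries.

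At Olig2-Olig1, all 12 libraries had at least 1 peak, and no library had more than 6. The 51 peaks were narrow, 127 to 622 bp, and 17 of them (33.3%) scored above the middle of their own list. No peak there passed the 90th percentile. In the GRCm38 gene order, the long non-coding RNA gene Gm41492 comes before Olig2, and another, Gm52261, lies between Olig2 and Olig1, which comes last. The peaks sat mainly toward the Olig1 end. The region in most libraries, chr16:91269673-91270174, lay 94.7 kb into the window and was called in 4 of 4 E0, 2 of 4 E1 and 3 of 4 E4 libraries. Its score percentiles were 56.6, 22.0, 50.7 and 53.1 in E0 replicates 1 to 4, 24.0 and 55.7 in E1 replicates 1 and 3, and 24.1, 4.38 and 22.0 in E4 replicates 1, 2 and 4. It was the only Olig2-Olig1 region present in every E0 library, and it ranked in the upper part of the list in 3 of those 4.

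The other regions of the Olig2-Olig1 window were called less regularly. A neighbouring region at chr16:91266166-91266612 was called in 1 E0, 3 E1 and 3 E4 libraries, with percentiles of 0.835 to 37.9. Past the gene span, chr16:91280668-91281204 was called in 1 E0, 3 E1 and 2 E4 libraries and held the highest percentile of the window, 79.8 in E1 replicate 3. The region chr16:91305657-91306247 was called in 2 libraries of each group, with percentiles of 7.10 to 74.6. The region chr16:91314368-91314764 was called in 2 E0 and 3 E1 libraries and in no E4 library. At the Olig2 end of the span, 50.3 kb into the window, the region chr16:91225325-91226112 was called in 1 E0, 2 E1 and 2 E4 libraries; it was singled out after its values were seen because it lies where the gene span begins. Its percentiles ran from 10.1 in E4 replicate 3 to 58.7 in E1 replicate 2.

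At Sox10, 68 peaks fell in the window, 2 to 12 per library, and 23 of them (33.8%) scored above the middle of their list. The approximate Sox10 span is 10 kb of the 110 kb window, so few peaks would lie there by length alone. It was touched by 4 of the 68, in 3 libraries: 1 in E1 replicate 1, 2 in E4 replicate 1 and 1 in E4 replicate 4. Their percentiles were 35.6, 19.4, 2.43 and 4.14 in that order, so all were weak, and no E0 library had a peak in the span. The window also takes in the flanks of Sox10, where the GRCm38 gene order has Micall1, 1700088E04Rik and Polr2f (a subunit of RNA polymerases) on one side and the non-coding Gm10863 on the other.

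The strongest Sox10-window region lay outside the span, 36.2 kb into the window, at chr15:78971186-78972286. It was called in 3 of 4 E0, 4 of 4 E1 and 4 of 4 E4 libraries. Its percentiles were 76.8, 70.6 and 74.8 in E0 replicates 1, 2 and 4. In E1 replicates 1 to 4 they were 87.8, 86.1, 48.9 and 9.11, and in E4 replicates 1 to 4 they were 89.0, 60.9, 3.55 and 78.8. The groups overlapped, and the spread within E1 and within E4 was wider than any gap between groups. The next regions, chr15:78947414-78948121 (7 libraries), chr15:79023421-79024087 (6), chr15:78978960-78979442 (6) and chr15:78938261-78940346 (5), had mean percentiles of 41.8, 51.5, 33.9 and 61.4. Each was called in 2 or 3 E0, 2 or 3 E1 and 1 E4 library.

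Gad1 was the locus with the most peaks over its own approximate span, 42 of the 62 in its window, and every library had at least 1 there. The spans differ in length, with 51 kb at Gad1, 50 kb at Olig2-Olig1, 10 kb at Sox10 and 73 kb at Gad2. The count is thus not a density. Peaks were 121 to 3206 bp wide and 25 of the 62 (40.3%) scored above the middle of their list. The broadest region, chr2:70398910-70402562, began 57.9 kb into the window and was called in 10 libraries, 3 E0, 3 E1 and 4 E4. Single peaks spanned 3206 bp in E1 replicate 2 and 2978 bp in E4 replicate 1, whereas other libraries had 1 or 2 shorter peaks in it. The region's best percentile was 8.30, 47.8 and 37.7 in E0 replicates 1, 2 and 4, 67.5, 65.0 and 67.0 in E1 replicates 1 to 3, and 83.6, 7.56, 2.61 and 42.4 in E4 replicates 1 to 4. E0 replicate 3 and E1 replicate 4 had no peak in it, and the E4 values ran across those of E0 and E1.

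A region further into the Gad1 span, chr2:70429953-70431069, was called in 2 E0, 4 E1 and 2 E4 libraries, with percentiles between 55.1 and 79.0. They were 79.0 and 61.8 in E0 replicates 2 and 4, 67.0, 77.6, 76.5 and 70.02 in E1 replicates 1 to 4, and 76.7 and 55.1 in E4 replicates 1 and 2. It was among the 24426 highest scores in 7 of the 8 libraries that held it. Past the span, chr2:70467373-70468113 was called in 1 E0, 4 E1 and 2 E4 libraries, with percentiles of 40.5 to 85.7. In the opposite pattern, chr2:70426183-70426701 was called in 4 E0, 1 E1 and 1 E4 libraries, with percentiles of 76.4, 47.9, 1.45 and 69.6 in E0 replicates 1 to 4. The region chr2:70347204-70347680 was called in 5 libraries at percentiles of 8.83 to 43.9. In the GRCm38 gene order, Erich2 and the antisense gene Gad1os neighbour Gad1.

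Gad2 showed almost no peak over its own span. Only 3 of the 31 peaks in the window lay there, in 3 libraries: 311 bp in E0 replicate 1, 259 bp in E1 replicate 1 and 237 bp in E1 replicate 2, at percentiles of 25.7, 35.1 and 3.85. No E4 library had one. Outside the span, chr2:22577290-22577864, 150.3 kb into the window, was called in all 12 libraries. Its percentiles were 68.9, 73.3, 20.4 and 61.3 in E0 replicates 1 to 4, 79.99, 76.9, 60.1 and 73.2 in E1, and 64.9, 24.6, 39.5 and 52.2 in E4. The groups overlapped. At the far edge, chr2:22599953-22600647 was also called in all 12 libraries, with a mean percentile of 89.2, but it extends past the window and only 2 libraries had a peak reaching into it. The remaining region, chr2:22579737-22580081, was called in 1 E1 and 1 E4 library, and chr2:22535530-22535823, inside the span, in 2 E1 libraries.

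Most of the covered length in the Gad2 window came from 1 wide region, chr2:22442612-22446105, which lay 15.6 kb into the window and so outside the gene span. Its peaks were 3088 to 3494 bp wide in the 12 libraries, and their scores were 3100.00 in 11 libraries and 3091.85 in E4 replicate 2. They ranked between 1 and 4 in every list, where peaks of equal score all took the best rank they shared. Each list held 4 to 7 peaks scoring at least 3000. Start and end positions of the region's peaks differed by at most 165 and 241 bp between libraries. The region made up 77.9% to 95.1% of the covered length of the window. Of all 170710 regions, 302 (0.177%) were at least as wide, and 4 had a score of at least 3000 in all 12 libraries. In the GRCm38 gene order the gene next to Gad2 on its upstream side is Myo3a, an unconventional myosin. Whether reads of this region align uniquely was not tested, and Gad2 results are given with and without it.

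**Figure D2:**
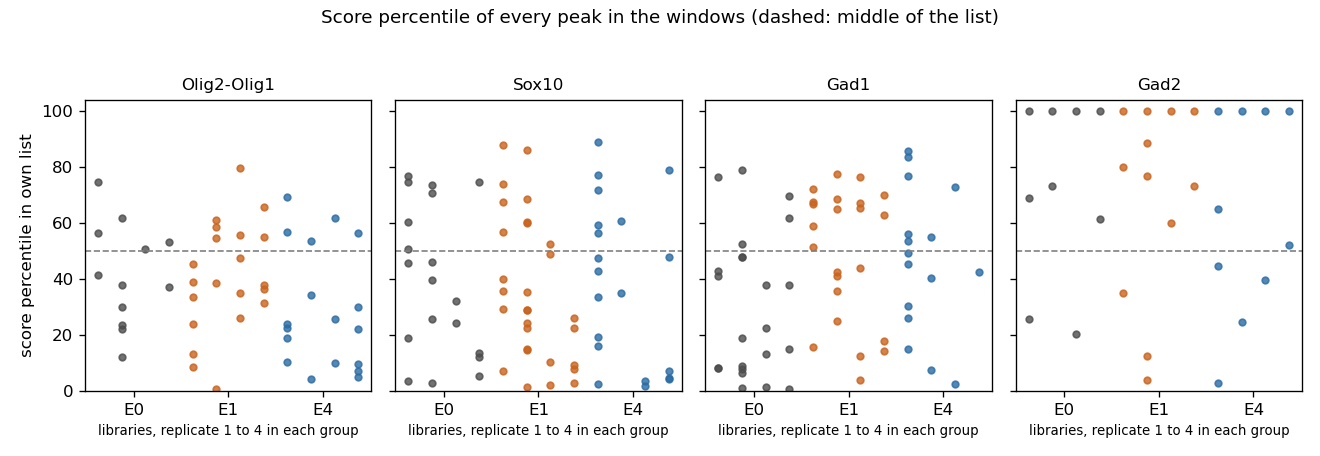
Score percentile of every peak (y axis, 100 is the highest score of the library's own list) in each library (x axis: replicates 1 to 4 of E0, E1 and E4) for the 4 windows, with the middle of the list dashed. Peaks of Olig2-Olig1, Sox10 and Gad1 lie mainly below the middle, and 1 peak per library in the Gad2 window lies at the top.

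The windows were also set against the whole genome. When each window was scaled to 150 kb and set among the 16293 tiles of that size with a peak in any library, Olig2-Olig1 stood at percentile 60.5 of the mean covered share, Sox10 at 79.9, Gad1 at 76.1 and Gad2 at 94.9. Without its wide region, Gad2 stood at percentile 22.3. Of the 53 regions, 15 (28.3%) were called in 1 library, against 35.1% of all regions, and 15 (28.3%) in 6 or more libraries, against 28.4%. Their median width was 443 bp, against 399 bp. These figures are descriptions with no test.

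The covered share of each window was then compared between groups as a check of the cell mix, with a two-sided exact permutation test on the difference of the group means. With 8 libraries there are 70 ways to form the groups, and p cannot fall below 0.0286. The same floor holds when a library is left out. The Benjamini-Hochberg adjustment ran over all tiles plus the 4 windows. As background, an unadjusted p under 0.05 was reached by 13.1% of tiles for E1 against E0, 6.41% for E4 against E0 and 7.37% for E4 against E1. No tile passed the adjustment in any of these comparisons. Because p cannot fall below 0.0286, an adjusted p under 0.05 needs most tiles to reach that lowest p. The adjustment could therefore hardly be passed, and no conclusion is drawn from it. None of the 4 windows reached an unadjusted p under 0.05 in any of the 3 comparisons.

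For Olig2-Olig1, peaks covered 40.4, 54.3, 22.8 and 30.4 bp per Mb of peaks in E0 replicates 1 to 4. The values were 52.4, 44.5, 51.4 and 59.4 in E1 and 38.6, 67.8, 73.7 and 207 in E4. The groups overlapped, with E4 replicate 4 far above the rest and E4 replicate 1 within the E0 range. The E1 mean was 51.9 ± 6.12 (SD, n = 4) against 37.0 ± 13.6 in E0, a difference of 15.0 (exact permutation p = 0.114, adjusted p = 0.400), and all 4 E1 libraries lay above the E0 median. Without E0 replicate 2 the difference was 20.7 (exact permutation p = 0.0286). The E4 mean was 96.7 ± 75.0 (SD, n = 4), a difference of 59.7 from E0 (exact permutation p = 0.0857, adjusted p = 0.591) and of 44.8 from E1 (exact permutation p = 0.200, adjusted p = 0.571). Without E4 replicate 1, the longest list, these differences were 79.1 and 64.2 (exact permutation p = 0.0286 for both). The 3 other E4 libraries have the 3 shortest lists of the series, so in them list length moved with the result. With lists of equal length, E4 minus E0 was 35.3 and E4 minus E1 was 42.7 (exact permutation p = 0.143 for both). Counted as peaks per 10000 listed, the differences were 0.643 (exact permutation p = 0.0571) and 0.439 (exact permutation p = 0.200). With only peaks scoring at least 100, E4 minus E0 was -10.6 (exact permutation p = 0.714) and E4 minus E1 was -30.4 (exact permutation p = 0.0571).

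For Sox10, the covered share was 96.4, 64.5, 29.9 and 53.8 bp per Mb in E0 replicates 1 to 4, 101, 130.04, 50.4 and 49.7 in E1 and 96.5, 52.3, 63.6 and 123 in E4. Within each group the values were spread over more than the gap between group means. The means were 61.1 ± 27.6 in E0, 82.8 ± 39.6 in E1 and 83.8 ± 32.0 in E4 (SD, n = 4). Neither E1 (difference 21.7, exact permutation p = 0.400, adjusted p = 0.700) nor E4 (difference 22.6, exact permutation p = 0.400, adjusted p = 0.853) was separated from E0, and E4 minus E1 was 0.929 (exact permutation p = 0.943, adjusted p = 1).

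For Gad1, the covered share was 78.5, 123, 75.6 and 105.9 bp per Mb in E0 replicates 1 to 4, 126, 134, 92.3 and 49.1 in E1 and 125.8, 80.7, 97.0 and 42.8 in E4. Replicate 4 was the lowest library of both E1 and E4. The means were 95.7 ± 22.7 in E0, 100.4 ± 38.7 in E1 and 86.6 ± 34.6 in E4 (SD, n = 4). The differences were 4.64 for E1 minus E0 (exact permutation p = 0.857, adjusted p = 0.983), -9.14 for E4 minus E0 (exact permutation p = 0.686, adjusted p = 0.990) and -13.8 for E4 minus E1 (exact permutation p = 0.514, adjusted p = 0.807). All were smaller than the SD within the groups compared.

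For Gad2, the covered share was 132, 81.2, 268 and 207 bp per Mb in E0 replicates 1 to 4, 97.4, 96.5, 142 and 161 in E1 and 65.1, 280.5, 469.8 and 342 in E4. The covered length itself was almost constant, 3313 to 4299 bp in all libraries, so the share was high where the list covered little. The means were 172 ± 82.1 in E0, 124 ± 32.4 in E1 and 289 ± 169 in E4 (SD, n = 4). E1 minus E0 was -47.9 (exact permutation p = 0.371, adjusted p = 0.675), E4 minus E0 was 117 (exact permutation p = 0.257, adjusted p = 0.771) and E4 minus E1 was 165 (exact permutation p = 0.143, adjusted p = 0.502). Without E4 replicate 1, E4 minus E1 was 240.0 (exact permutation p = 0.0286).

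With the wide Gad2 region left out, an alternative chosen after seeing the data, the window held 170 to 951 bp per library. Group means were then 16.7 bp per Mb in E0, 15.4 in E1 and 18.3 in E4, and the differences were -1.34 for E1 minus E0 (exact permutation p = 0.829), 1.60 for E4 minus E0 (exact permutation p = 0.800) and 2.94 for E4 minus E1 (exact permutation p = 0.371). The difference of 165 between E4 and E1 was thus 2.94 once that region was left out.

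**Figure D3:**
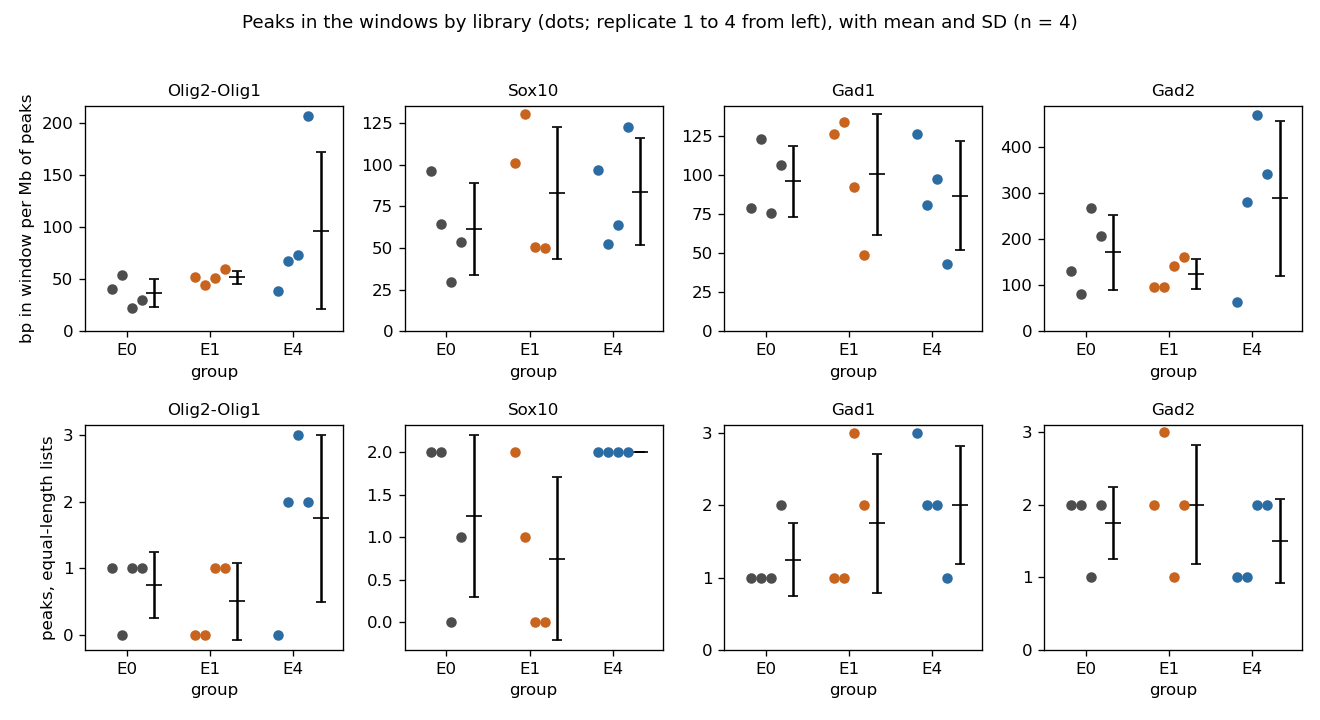
Upper row: bp of peaks in each window per Mb of peaks in the list; lower row: number of peaks in the window when each list is reduced to its 24426 highest scores. Dots are libraries (replicates 1 to 4 from left), bars the mean and SD (n = 4); the groups overlap in all panels of the upper row, and the lower row shows 0 to 3 peaks per library.

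With lists of equal length, few of these peaks were left. At Olig2-Olig1 the lists then held 1, 0, 1 and 1 peaks in E0 replicates 1 to 4, 0, 0, 1 and 1 in E1 and 0, 2, 3 and 2 in E4. At Sox10 they held 2, 2, 0 and 1 in E0, 2, 1, 0 and 0 in E1 and 2 in every E4 library. At Gad1 they held 1, 1, 1 and 2 in E0, 1, 1, 3 and 2 in E1 and 3, 2, 2 and 1 in E4. At Gad2 they held 1 to 3 in every library, 1 of which was the wide region. The E4 replicate 3 list is kept whole in this setting, and its 2 Sox10 peaks lie at percentiles of 1.67 and 3.55.

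No region in the windows had a peak in all 4 libraries of one group and in none of another. Of the 53 regions, 0 were gained and 0 lost at E1 against E0 by this rule, where 3.27% of all regions were gained and 0.182% lost. For E4 against E0, 0 were gained and 0 lost, against 0.136% and 0.145% of all regions, and for E4 against E1, 0 were gained and 0 lost, against 0.00996% and 0.448%. A pattern of 4 of 4 against 0 of 4 is the only one for which Fisher's exact test of 4 libraries against 4 gives a p under 0.05, so the count at an unadjusted p under 0.05 is also 0. The smallest share above 0 that 53 regions can show is 1 region (1.89%), so these counts say little where the background is lower than that.

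A difference of at least 3 libraries, a rule added after seeing the data, was met by 4 regions. At E1 against E0, chr2:70467373-70468113 past the Gad1 span went from 1 to 4 libraries (8.95% of all regions met the rule in this direction) and chr2:70426183-70426701 in the Gad1 span went from 4 to 1 (1.24%). At E4 against E0, chr2:70426183-70426701 again went from 4 to 1 and chr2:70396097-70396620, also in the Gad1 span, from 3 to 0 (2.69%), and none gained (0.848%). At E4 against E1, chr16:91314368-91314764 past the Olig2-Olig1 span went from 3 to 0 (6.87%), and none gained (0.102%). The E1 and E4 comparisons with E0 share the E0 libraries. The 53 regions thus met the rule in 1 or 2 cases per comparison, and 3 of the 4 regions were in the Gad1 window.

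As a rough description of the 2 cell types, the covered length of the Olig2-Olig1 and Sox10 windows was divided by that of the Gad1 and Gad2 windows. This sets 2 parts of the same list against each other. The windows include flanks with other genes. At Sox10, 4 of 68 peaks touched the gene span, which is 10 of 110 kb. At Gad2, 3 of 31 peaks touched it, which is 73 of 173 kb. The ratio was 0.649, 0.582, 0.153 and 0.269 in E0 replicates 1 to 4, 0.687, 0.757, 0.435 and 0.520 in E1 and 0.708, 0.332, 0.242 and 0.856 in E4. With the wide Gad2 region left out it was 1.29, 0.928, 0.578 and 0.675 in E0, 1.10, 1.12, 0.972 and 1.73 in E1 and 0.973, 1.20, 1.13 and 5.54 in E4. E4 replicate 4 stood apart in the second set, with 3365 bp in the oligodendrocyte windows and 607 bp in the interneuron windows. The E0 libraries 3 and 4 were the lowest of all 12 in the second set. No test was made of this ratio. How far the cell mix of a dissection contributes to it cannot be told apart from list length or from peaks of neighbouring genes in these data.

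**Figure D4:**
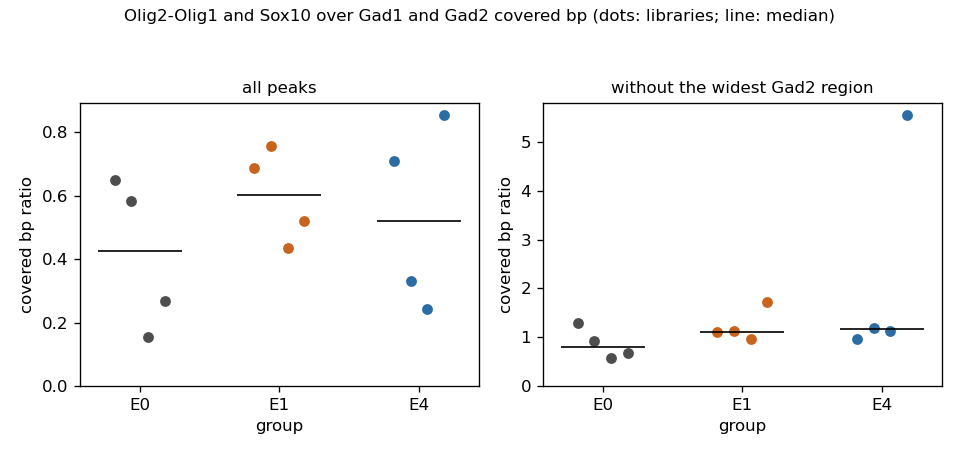
Covered bp at Olig2-Olig1 and Sox10 over covered bp at Gad1 and Gad2 (y axis) for each library (dots; lines are group medians), with all peaks (left) and without the widest Gad2 region (right). Values of the 3 groups overlap in both panels, and E4 replicate 4 lies at 5.54 in the right panel.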

How the data were processed

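Peak lists from 12 ATAC-seq libraries were used, 1 list per mouse. Bowtie2 and the build mm9 are named in the submitters' processing notes. The names of the peaks start with MACS, a peak caller. Not given in the sources used here are its version, control and threshold, the read shift for the transposase, duplicate handling and any blacklist. Whether a missing blacklist or lenient duplicate filter left very high peaks in the lists was not tested. The score per peak is the authors' deposited score, at least 50.0, with no stated scale. No column of these lists went unmapped to a sample.

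The members, windows and lists were chosen with earlier results of these data known. Windows were read from 1 with both ends included. Covered length was clipped to the window, and a peak counted if it overlapped by 1 bp. Peaks on chromosomes 1 to 19 and X were merged in Python 3.11.15, and bedtools 2.31.1 gave the same 170710 regions. The test of tiles was tried on simulated random counts built from the E0 and E1 lists. These differ between libraries only by list length and counting chance and include no E4 list, so they cannot vouch for the comparisons here. Named regions were the 5 per window with the most libraries, ties by mean percentile, plus any called. Alternatives were equal-length lists (24426 peaks), peaks per 10000, a score minimum of 100, windows shortened by 25 kb, other merging (100 bp) and coverage (50%), leaving out each library, and the replicate block.

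Replicate numbers recur in the 3 groups. Over all tiles, deviations of same-numbered E1 and E0 libraries correlated at 0.124 to 0.465, above 0.1 in 4 of 4 pairs. Only 2 of the 4 E1 libraries correlated best with their own number. These numbers were taken to pair the libraries in an alternative setting. The pairing comes from this check and not from the labels, and it is uncertain. The gene table is of another build, so it served for names and gene order only. Marker genes of other cell types, granule neurons included, were not analysed here.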

Additional observations from a re-analysis of the deposited data

Results flagged for a closer look

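Libraries were looked at again where the highest or lowest of the 4 in a group lay apart from the others by Dixon's criterion (the gap to the nearest library over the range of the group). Of 56 groups of values looked at, 10 met it, and chance gives about 1 in 20. In the covered length, E4 replicate 1 was highest at Sox10 (5743 bp, next 1253 bp) and at Gad1 (7485 bp, next 1029 bp), and it has the longest list of the series. In the ratio of oligodendrocyte-window to interneuron-window covered length without the wide Gad2 region, E4 replicate 4 was highest (5.54, next 1.20). It was also highest in the ratio of peak numbers (3.67, next 1.25). The other cases are small whole numbers with ties, where a gap of 1 or 2 peaks is the whole range. They are the peak numbers of E1 replicate 1 at Olig2-Olig1 (6, the others 5), E0 replicate 1 at Gad2 (3, the others 2) and E4 replicate 1 at Gad2 (4, the others 2). In equal-length lists they are E0 replicate 2 at Olig2-Olig1 (0, the others 1), E0 replicate 4 at Gad1 (2, the others 1) and E0 replicate 3 at Gad2 (1, the others 2).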

How the results depend on the processing

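No covered-share comparison was called at an unadjusted exact permutation p under 0.05 with all libraries and lists as deposited, and most alternatives left that so; the cause of the exceptions was not tested. With equal-length lists the sign turned for Olig2-Olig1 E1 minus E0 (-7.37 bp per Mb), Sox10 E1 minus E0 (-1.32), Gad1 E4 minus E0 (60.8) and Gad1 E4 minus E1 (39.7). Counted as peaks per 10000 listed, Gad1 E1 minus E0 was -0.288. With scores of at least 100, Olig2-Olig1 was -10.6 for E4 minus E0 and -30.4 for E4 minus E1. With windows shortened by 25 kb, E4 minus E0 reached exact permutation p = 0.0286, the lowest possible, for Olig2-Olig1 (66.6) and Sox10 (23.5). With lists as deposited, 6.41% of tiles had an unadjusted exact permutation p under 0.05 for E4 against E0. No such share was at hand for shortened windows, and the shortest lists of the series are E4 lists. Gad1 E1 minus E0 was -5.57 with shortened windows. Gad2, whose wide region then lies outside, was 0.317 (E1 minus E0), -2.64 (E4 minus E0) and -2.96 (E4 minus E1).

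Leaving out 1 library gave ranges of 10.2 to 20.7 for Olig2-Olig1 E1 minus E0, 23.0 to 79.1 for E4 minus E0 and 8.07 to 64.2 for E4 minus E1. For Sox10 they were 5.98 to 33.5, 9.67 to 34.4 and -12.0 to 16.7 in the same order, for Gad1 -6.55 to 21.7, -22.2 to 5.46 and -30.9 to 0.820, and for Gad2 -78.1 to -15.9, 57.2 to 192 and 105.1 to 240.0. An exact permutation p of 0.0286, the lowest possible, was reached without E0 replicate 2 (Olig2-Olig1 E1 against E0). It was also reached without E4 replicate 1 (Olig2-Olig1 E4 against both, Gad2 E4 against E1). Each window had 8 such settings per comparison, and no background share of tiles was at hand for them, so no conclusion is drawn from these p-values. Called regions numbered 0 to 1 in each comparison without 1 library. The count was 1 of 53 (1.89%) without E0 replicate 2 or E1 replicate 2 for E1 against E0 (4.75% and 4.02% of all regions, both directions together), without E0 replicate 4 or E4 replicate 1 for E4 against E0 (0.477% and 2.22%) and without E1 replicate 1 for E4 against E1 (0.671%). Called regions numbered 2, 2 and 1 with a difference of at least 3 libraries for E1 against E0, E4 against E0 and E4 against E1; other settings gave 0.

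With the replicate block the differences stay as they are (15.0 for Olig2-Olig1 E1 minus E0) and exact permutation p ran from 0.250 to 1, where the smallest possible is 0.125, so the pairing changed no call and could not have made one. For E4, same-numbered libraries shared only a number: correlations ran from -0.0919 to 0.319 with E0 and from -0.0369 to 0.207 with E1, and 1 and 0 of the 4 E4 libraries correlated best with their own number. Depth is unknown, and a few peaks per window limit every comparison.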
